A study of Mus musculus with 6 samples.

Results

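Nicotinamide nucleotide transhydrogenase (Nnt) and 9 other genes of the NADPH-driven antioxidant defence of mitochondria were followed in the left ventricle of mice with and without Akt2. The 10 genes are Nnt, Idh2, Me3, Gsr, Txnrd2, Txn2, Prdx3, Prdx5, Gpx1 and Sod2, and every probe set that the platform annotation assigns to exactly 1 of them was taken. This gave 21 of the 45101 probe sets of the array, which name 18194 genes singly. The 21 cover 9 of the 10 genes, since no probe set names Prdx5 alone in the annotation used here. The 10 genes were chosen on results of these same arrays, among them the genotype difference of Nnt. The genotype differences of the members are therefore given as a description, with no p-value of their own.

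Left ventricles came from male C57BL/6 mice aged 12 to 16 weeks. The first group had 3 samples homozygous for a targeted disruption of Akt2 (akt2-/-, called knockout here), and the second had 3 wild type samples. Per the labels' protocols the disrupted line had been backcrossed more than 7 times to wild type C57Bl/6 mice of the Jackson Laboratory, and progeny were typed by PCR on tail tissue. Akt2 encodes a kinase of insulin signalling. The labels name no tissue-specific deletion, so a difference in the ventricle need not begin in heart muscle. Labelled cRNA of each sample went onto 1 Affymetrix mouse array. Within a genotype the samples carry the numbers 1 to 3, and the labels do not say that they came from separate animals, so errors and p-values measure the spread between these samples, which may be technical. The number of arrays limits the precision of every value below.

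Mitochondria make superoxide and hydrogen peroxide as a by-product of respiration, and the heart, being rich in mitochondria, depends on their removal. Sod2 converts superoxide to hydrogen peroxide in the matrix. Peroxiredoxins and glutathione peroxidases then reduce the peroxide at the expense of thioredoxin and glutathione, which are recharged by thioredoxin reductase and glutathione reductase with NADPH. Within the matrix that NADPH comes from Nnt, which uses the proton gradient across the inner membrane, and from the NADP-dependent enzymes Idh2 and Me3. Nnt is also known as a locus at which laboratory strains differ: C57BL/6J mice of the Jackson Laboratory carry a deletion of several exons of the gene. The Nnt allele of the mice studied here is not given in the labels.

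The arrays themselves were not all alike. The median signal lay between 88.4 and 91.2 on 4 arrays, but was 167.2 on wild type array 1 and 134.3 on knockout array 1. The median of the poly-A spike-in controls, bacterial RNAs added before labelling, was 56.2 and 59.6 on the wild type and knockout replicate 1 arrays, against 532.3 to 945.5 on the others. The 18S ribosomal RNA controls had medians of 82330 and 57275 on those 2 arrays, against 152.7 to 446.7. Within each replicate number the poly-A median was higher in the knockout, at 59.6 against 56.2, 945.5 against 699.8 and 783.5 against 532.3. The 3' to 5' ratio of Actb, a measure of RNA integrity and labelling, was also higher in the knockout for each number, at 1.67 against 1.61, 1.44 against 1.34 and 1.48 against 1.40. That of Gapdh was lower in the knockout for each number, at 0.807 against 0.900, 0.728 against 0.740 and 0.728 against 0.740, so the 2 ratios pointed in opposite directions. What part these differences have in the genotype values was not tested. Since each replicate number holds both genotypes, the members' values for the replicate 1 pair and for replicates 2 and 3 are given beside the pooled ones.

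The targeted gene bore out the labels. The brightest Akt2 probe set (1424480_s_at) had signals of 2362.6, 2561.3 and 2505.4 in the wild type and 477.8, 394.5 and 255.4 in the knockout. The markers of ventricular muscle included Myl2, the ventricular myosin light chain, at 56148.6 to 206483 in every array. All 10 markers of ventricular cardiomyocytes passed the filter on low signals.

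Nnt was about 2-fold higher in the knockout by both of its bright probe sets. Probe set 1416105_at had signals of 14040.1, 12450.1 and 13155.5 in wild type arrays 1, 2 and 3 and of 30311.2, 26984.9 and 22465.6 in knockout arrays 1, 2 and 3. The lowest knockout array lay well above the highest wild type array, and the means were 26587 ± 3938 and 13215 ± 797 (SD, n = 3 each). On the log2 scale, after adding a constant of 21.7 to each signal, the difference was 1.00 (limma SE 0.187). By replicate number the ratio of knockout to wild type signal was 2.16, 2.17 and 1.71.

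Probe set 1456573_x_at of Nnt had 4019.1, 5485.3 and 6115.1 in the wild type and 12845.8, 11640.7 and 9219.2 in the knockout. Its means were 11235 ± 1847 and 5206.5 ± 1075 (SD, n = 3 each), a log2 difference of 1.11 (SE 0.235). Here the replicate 1 pair differed most, because wild type array 1 was the lowest and knockout array 1 the highest of all 6 arrays. That pair gave a log2 difference of 1.67 and replicates 2 and 3 together gave 0.84, against 1.11 and 0.94 for 1416105_at. The suffix of this probe set marks probes that may also bind other transcripts.

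The remaining Nnt probe set, 1432608_at, was dim and did not follow the other two. It had 159.8, 90.7 and 49.6 in the wild type and 87.3, 73.1 and 81.0 in the knockout, so the knockout arrays lay inside the wild type range. It was the only one of the 21 probe sets below the filter on low signals, which kept the brighter part of all probe sets, split at the median of their mean log2 values. The sources used here do not place the probe sets along the transcript.

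**Figure D1:**
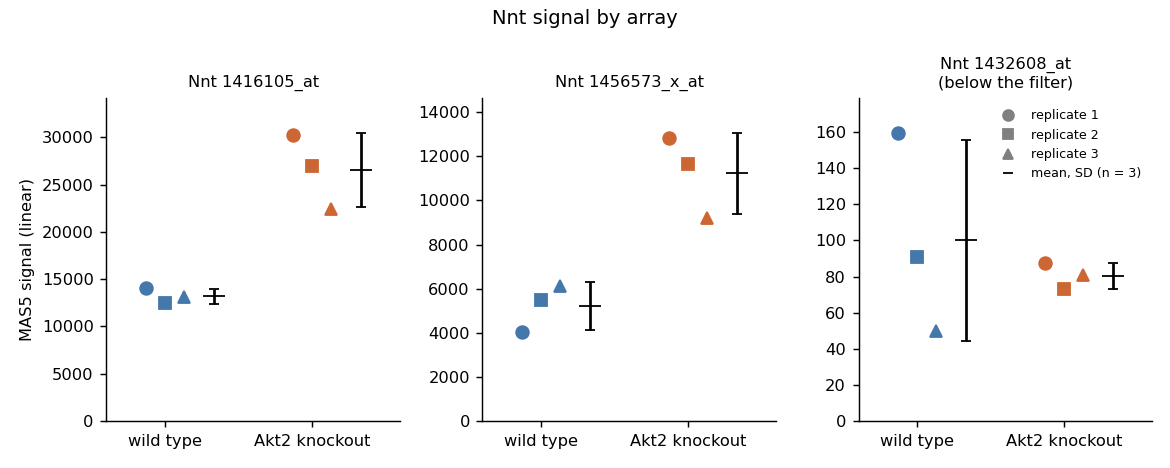
MAS5 signal (linear axis from 0) of the 3 Nnt probe sets on each array, with wild type in blue and knockout in orange, a marker shape for each replicate number, and a bar for the mean and SD of 3 arrays. In 1416105_at the 3 knockout arrays lie at 22465.6 to 30311.2, above all wild type arrays, and in 1456573_x_at at 9219.2 to 12845.8, while the dim 1432608_at overlaps between genotypes.

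Among the 22519 probe sets that passed the filter, 86 had a larger log2 difference than 1416105_at and 48 a larger one than 1456573_x_at. Nnt was chosen for this difference, so nothing is read from these ranks. In the limma test of genotype over these 22519 probe sets, 0 had a Benjamini-Hochberg adjusted p under 0.05 (0%), and 453 had an unadjusted p under 0.05 (2.01%). None of the 20 members past the filter was thus called. Akt2 itself was not called either, with a log2 difference of -2.69 and a limma adjusted p of 0.18 for 1424480_s_at. The lack of calls therefore does not show that the members were unchanged. This fit leaves the difference between the replicate 1 arrays and the others in its error. With the replicate number as a block 0 probe sets were called again (0%), and with the replicate 1 arrays as a block 1 was called (0.00444%), which was no member.

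By the looser measure of no overlap between the genotypes, 4 of the 20 members were higher in every knockout array than in any wild type array, where 3.64% of all tested probe sets were. These were both bright Nnt probe sets, Me3 and 1 of 4 probe sets of Sod2. Only Gpx1 was lower throughout, where 3.66% of all tested probe sets were. Since the members were chosen on this contrast, nothing is read from these shares. The median log2 difference of the 20 was -0.04, against 0.01 over all tested probe sets, and the 18 outside Nnt ranged from -0.56 to 0.35. In 9 of these 18 the sign in the replicate 1 pair was opposite to that in replicates 2 and 3.

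**Figure D2:**
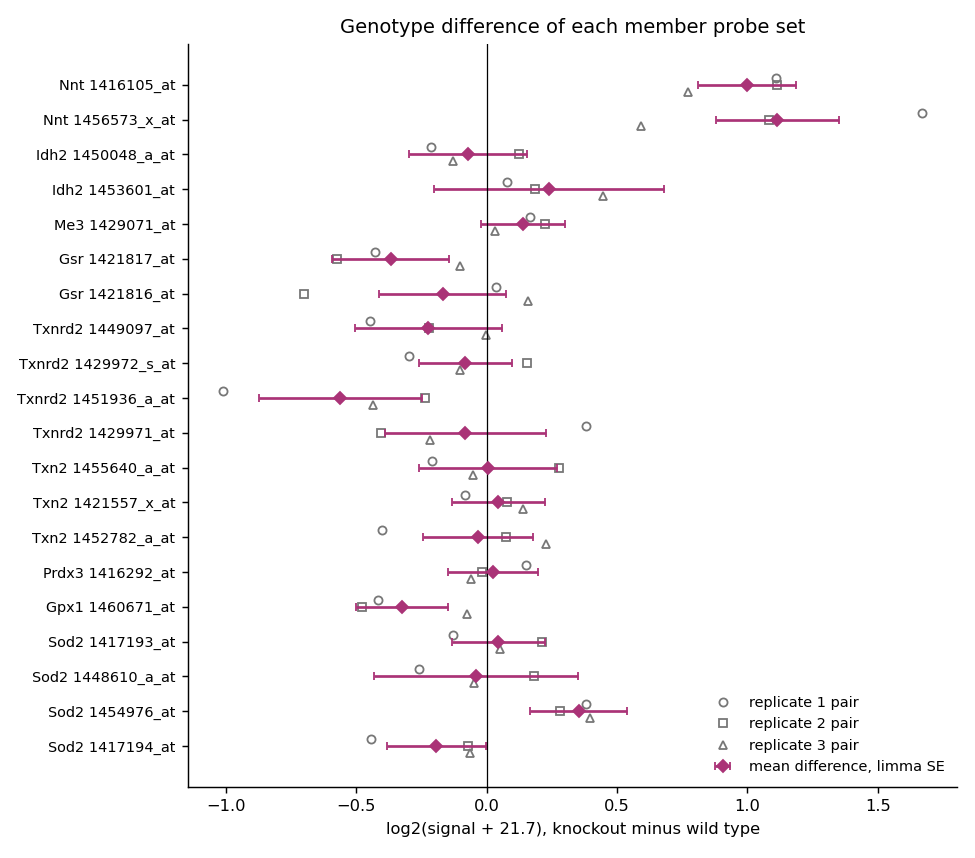
Difference between knockout and wild type in log2(signal + 21.7) for the 20 member probe sets past the filter. Open markers are the 3 pairs of equal replicate number and diamonds are the mean difference with its limma SE. Both Nnt probe sets lie near 1, and the other 18 lie between -0.56 and 0.35.

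The other enzymes that make NADPH in the matrix differed little by comparison. Me3, the mitochondrial NADP-dependent malic enzyme, had 2261.9, 2357.7 and 2430.0 in the wild type and 2539.4, 2759.8 and 2483.0 in the knockout. Its knockout arrays all lay higher, but by a ratio of means of 1.10 (log2 0.14, SE 0.162; 0.17 for number 1 and 0.13 for numbers 2 and 3), and the gap between the groups was small against the distance between knockout arrays. Idh2, the mitochondrial NADP-dependent isocitrate dehydrogenase, had 40157.3, 28912.3 and 27683.4 in the wild type and 34613.2, 31537.9 and 25337.3 in the knockout by its bright probe set 1450048_a_at. The genotypes overlapped, with a log2 difference of -0.07 (SE 0.227), which was -0.21 for number 1 and -0.0012 for numbers 2 and 3. A dim Idh2 probe set, 1453601_at, had 183.0, 83.1 and 53.5 against 194.6, 97.6 and 80.8, and overlapped as well (log2 0.24, SE 0.441), with 0.08 for number 1 and 0.32 for numbers 2 and 3.

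The reductases that spend the NADPH, Gsr and Txnrd2, had log2 differences below 0 in all 6 of their probe sets, each with overlap between the genotypes. With single arrays left out in turn, only Gsr 1421817_at and Txnrd2 1451936_a_at stayed below 0 throughout. The others rose above 0 in at least 1 such setting. Gsr, glutathione reductase, had 499.0, 638.9 and 614.4 in the wild type and 365.7, 422.4 and 571.2 in the knockout by 1421817_at. Knockout arrays 1 and 2 lay below the wild type and array 3 within it, with a log2 difference of -0.37 (SE 0.224), or -0.43 for number 1 and -0.34 for numbers 2 and 3. Its other probe set, 1421816_at, gave -0.17 (SE 0.244), with knockout array 1 the highest and knockout array 2 the lowest of the 6. Its sign turned between number 1, at 0.04, and numbers 2 and 3, at -0.27.

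Txnrd2, the selenium-containing thioredoxin reductase of mitochondria, was read by 4 probe sets whose log2 differences were -0.56, -0.22, -0.08 and -0.08. The largest belonged to 1451936_a_at, which had 1189.1, 538.0 and 643.2 in the wild type and 578.7, 453.9 and 469.2 in the knockout (SE 0.313). Wild type array 1 stood far above the rest there. The replicate 1 pair differed by -1.01, and replicates 2 and 3 together by -0.34. In 1449097_at the signals were 1370.7, 823.8 and 749.3 against 998.8, 703.0 and 747.4, and array 1 was again the highest of each genotype. The difference was -0.45 for number 1 and -0.11 for numbers 2 and 3. In the remaining probe sets the sign turned, from -0.30 to 0.03 in 1429972_s_at and from 0.38 to -0.31 in 1429971_at.

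The thioredoxin and peroxiredoxin of the matrix overlapped between genotypes. Txn2, the mitochondrial thioredoxin that Txnrd2 recharges, gave log2 differences of 0.00, 0.04 and -0.03 by its 3 probe sets (SE 0.265, 0.178 and 0.212). All 3 were below 0 for number 1, at -0.21, -0.08 and -0.40, and above 0 for numbers 2 and 3, at 0.11, 0.11 and 0.15. Prdx3, the peroxiredoxin that Txn2 serves, had 11785.5, 13656.6 and 14601.4 in the wild type and 13095.1, 13478.6 and 13989.0 in the knockout. The knockout arrays lay inside the wild type range, with a log2 difference of 0.02 (SE 0.172), or 0.15 for number 1 and -0.04 for numbers 2 and 3.

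Gpx1, a selenium-containing glutathione peroxidase of cytosol and mitochondria, was the only member with lower signals in every knockout array. It had 5897.2, 6431.3 and 5804.6 in the wild type and 4409.6, 4612.2 and 5512.6 in the knockout. The means were 4845 ± 587 and 6044 ± 338 (SD, n = 3 each), a ratio of 0.802 and a log2 difference of -0.32 (SE 0.177). Knockout array 3 came close to the wild type. By replicate number the log2 differences were -0.42, -0.48 and -0.07.

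Sod2, the manganese superoxide dismutase, was read by 4 probe sets that disagreed with each other. In 1454976_at the wild type had 2775.5, 3562.3 and 3185.8 and the knockout 3619.5, 4331.6 and 4204.0, all higher, with a log2 difference of 0.35 (SE 0.185). By replicate number the differences were 0.38, 0.28 and 0.40, and the lowest knockout array was only just above the highest wild type array. The brightest probe set, 1417193_at, had 28691.3, 22252.7 and 26476.2 against 26203.8, 25791.6 and 27458.8 and overlapped (log2 0.04, SE 0.178), with -0.13 for number 1 and 0.13 for numbers 2 and 3. The dimmest, 1417194_at, pointed the other way, with 829.9, 614.4 and 723.6 against 604.6, 583.1 and 690.8 (log2 -0.19, SE 0.19). Most of that came from number 1, at -0.44, against -0.07 for numbers 2 and 3. In 1448610_a_at both replicate 1 arrays, at 32839.9 and 27444.4, stood far above the other 4, at 13695.3 to 16537.4. Its genotype difference was -0.04 (SE 0.391), with -0.26 for number 1 and 0.07 for numbers 2 and 3.

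**Figure D3:**
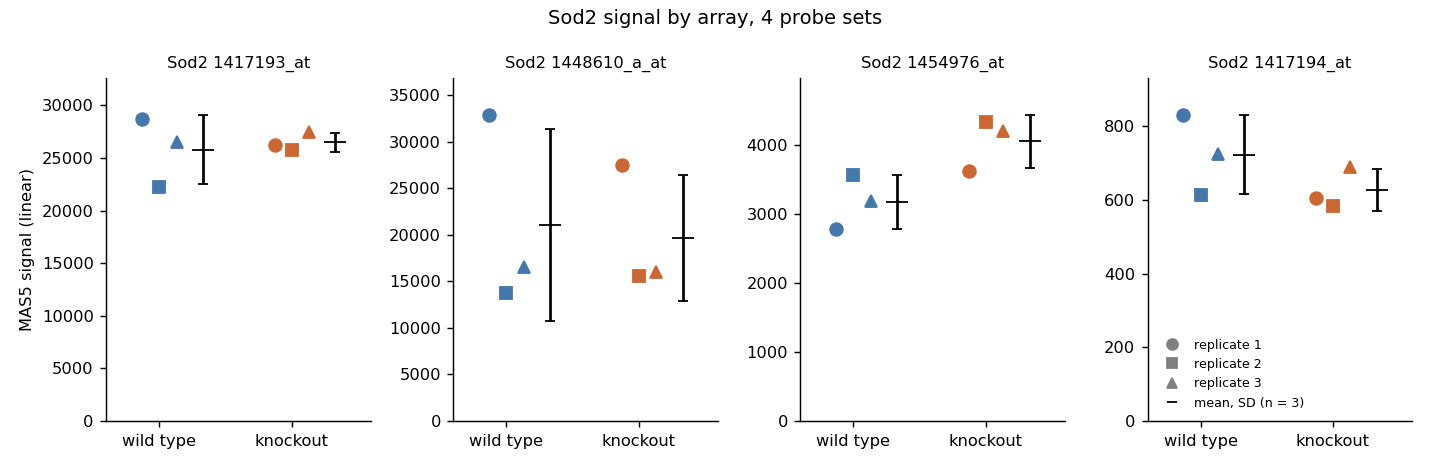
MAS5 signal (linear axes from 0) of the 4 Sod2 probe sets on each array, with marker shapes for the replicate numbers and bars for the mean and SD of 3 arrays. The knockout arrays are all higher only in 1454976_at, and in 1448610_a_at the replicate 1 arrays of both genotypes, at 32839.9 and 27444.4, stand above the rest.

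The contrast of the replicate 1 arrays with the others, with genotype in the limma model, was not used in choosing the genes. Of the 20 members, 5 were higher in the replicate 1 arrays at an adjusted p under 0.05 and 0 were lower. Among all tested probe sets 20% were higher and 13.2% lower, so the share of members called higher was near the background. Sod2 1448610_a_at was higher (log2 0.96, SE 0.149, limma adjusted p = 0.0107), and it passed in all 6 alternative settings, with adjusted p from 0.00137 to 0.0438. Idh2 1453601_at had 1.09 (SE 0.182, limma adjusted p = 0.0121). Txnrd2 1449097_at had 0.62 (limma adjusted p = 0.0231) and 1451936_a_at 0.65 (limma adjusted p = 0.0462). Txn2 1455640_a_at had 0.54 (limma adjusted p = 0.0436). These 4 calls were lost in 1 or more of the settings. The other probe sets of Sod2 gave 0.11, 0.12 and -0.26 and those of Txn2 -0.21 and -0.24. The bright Idh2 probe set gave 0.40, and the remaining ones of Txnrd2 gave -0.13 and 0.63. None of these passed the threshold. For Nnt the contrast gave 0.22 (SE 0.138, limma adjusted p = 0.259) and -0.11 (SE 0.226, limma adjusted p = 0.729).

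RefSeq windows of the 250 bases before the start of transcription (assembly GRCm38.p6) were found for 8 of the 10 genes. The core of the antioxidant response element, TGACNNNGC on either strand, was in 0 of the 8 windows and in 10.2% of all 32851 windows. The GC box, GGGCGG on either strand, was in 6 of the 8 and in 32.7% of all windows. The windows of Sod2 and Gpx1 are shown because these are the members outside the NADPH producers with a probe set in which every knockout array lay on one side, in opposite directions. Capitals mark GC boxes. That of Sod2 (chr17:13007589-13007838, plus strand) is 63.6% G or C with 4 GC boxes, and that of Gpx1 (chr9:108338830-108339079, plus strand) is 42% G or C with 0.
Sod2: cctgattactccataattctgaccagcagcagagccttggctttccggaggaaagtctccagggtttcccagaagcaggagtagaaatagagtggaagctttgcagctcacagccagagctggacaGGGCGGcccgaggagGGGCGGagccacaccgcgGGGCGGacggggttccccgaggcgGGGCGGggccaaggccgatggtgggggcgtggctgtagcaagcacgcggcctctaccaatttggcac
Gpx1: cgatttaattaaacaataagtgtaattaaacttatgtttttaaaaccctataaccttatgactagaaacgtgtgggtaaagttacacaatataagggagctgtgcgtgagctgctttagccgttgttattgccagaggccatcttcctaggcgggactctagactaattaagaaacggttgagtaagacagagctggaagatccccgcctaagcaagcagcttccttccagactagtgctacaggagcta
A match describes the letters of the window and is not evidence of binding.

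Genes next to Nnt were examined by their order in the RefSeq table, 10 protein-coding genes to either side. Of these 20, 11 had a tested probe set, 6 before and 5 after Nnt. The gene-level limma test was run on 11075 genes, each by its brightest probe set. In it 0 of the 11 had an adjusted p under 0.05 (0% of all genes) and 1 had an unadjusted p under 0.05 (2.17%). That gene was Tmem267, which encodes a transmembrane protein and lies at the third place after Nnt. It had 511.8, 602.0 and 604.4 in the wild type and 351.4, 269.8 and 414.8 in the knockout. Every knockout array was lower, with a log2 difference of -0.71 (SE 0.201, limma unadjusted p = 0.00979 and adjusted p = 1), and it was -0.52, -1.10 and -0.52 by replicate number.

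Mrps30, a protein of the mitochondrial ribosome at the second place before Nnt, had 1907.7, 2058.3 and 2167.9 in the wild type and 1296.2, 1821.4 and 1734.4 in the knockout (log2 -0.35, SE 0.188). Pelo, a factor of ribosome rescue at the seventh place before it, had 288.0, 410.5 and 399.6 against 514.5, 473.3 and 496.0 (log2 0.43, SE 0.187). In both genes the genotypes did not overlap. All knockout arrays were higher in 1 of the 11 genes, against 3.9% of all genes, and lower in 2, against 3.56%. Paip1, the gene directly after Nnt, encodes a binding partner of poly(A)-binding protein. It gave 0.40 by its brightest probe set and 0.46 by 1451740_at, both with overlap. By contrast, 1441955_s_at of the same gene gave -0.42 with every knockout array lower. Of the 11 genes 7 had a log2 difference above 0, against 5901 of all 11075 genes, and their median was 0.08. The 11 genes thus showed no common direction.

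**Figure D4:**
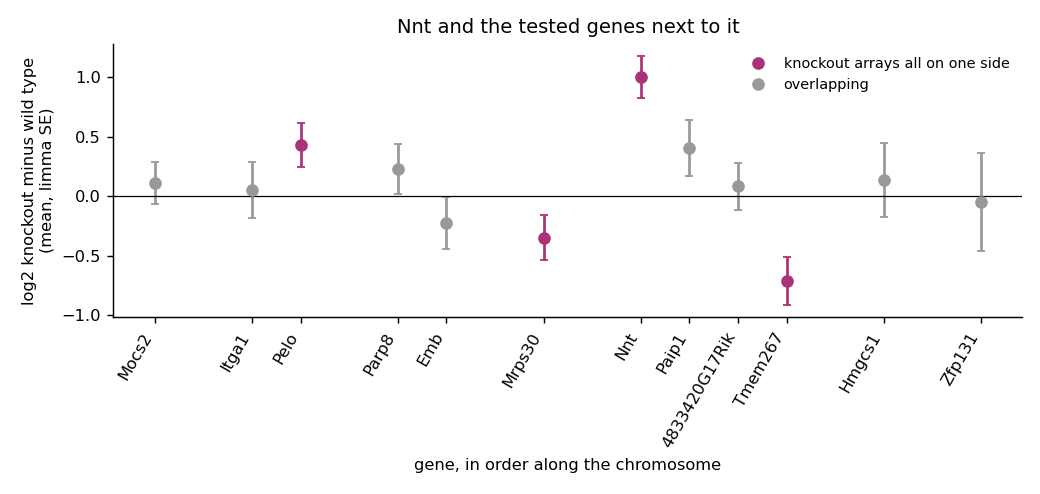
Log2 difference between knockout and wild type, with its limma SE, for Nnt and the 11 tested genes among the 10 on either side, in order along the chromosome and spaced by place, not by distance. Genes whose knockout arrays all lie on one side of the wild type are purple: Nnt at 1.00, Pelo at 0.43, Mrps30 at -0.35 and Tmem267 at -0.71.

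Across all tested genes, the profiles most like that of Nnt 1416105_at over the 6 arrays were found by the root-mean-square difference between mean-centred log2 values. The smallest difference was that of Blvrb, biliverdin reductase B, an enzyme that itself uses NADPH, at 0.0993. Its signals were 807.5, 834.8 and 777.9 in the wild type and 1868.4, 1655.7 and 1586.6 in the knockout. The knockout arrays were thus in the same order as for Nnt, but the wild type arrays were not. Klhl32, a kelch-like protein, followed at 0.154, then Apex2, a DNA repair endonuclease, at 0.180, Fam102a at 0.203, and Cacna1s, a calcium channel subunit of skeletal muscle, at 0.205. In these 5 genes the log2 difference lay between 0.77 and 1.06. A profile with a large difference between genotypes can only be matched by genes that differ likewise, so the measure says little beyond that.

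The wider antioxidant network was described with 6 further lists, in which 0 genes had an adjusted p under 0.05 and 0 an unadjusted p under 0.05 in the gene-level limma test (2.17% of all genes had the latter). With the replicate 1 arrays as a block, 0 of their genes were called either (0.00903% of all genes were), and 0 with the replicate number as a block (0%). Over all 11075 genes the median log2 difference was 0.01, with 5901 above 0. A list of other sources of NADPH and NADP had 11 of 14 tested members above 0 and a median of 0.11. Most of that median came from number 1, whose own median was 0.32, while numbers 2 and 3 gave 0.06. Mthfd2, Pgd, Mthfd2l and Me1 were above 0 when pooled but below 0 for numbers 2 and 3, and no member turned the other way. The pooled count is therefore no sign of a general rise in this list. Aldh1l2, a mitochondrial folate enzyme that makes NADPH, had 40.1, 140.1 and 218.9 in the wild type and 293.5, 231.6 and 239.8 in the knockout. All knockout arrays were higher (log2 1.04, SE 0.472), but the replicate 1 pair differed by 2.35 and replicates 2 and 3 together by 0.38. Me2, the NAD-dependent malic enzyme of mitochondria, had -0.47 (SE 0.247), and H6pd, which makes NADPH in the endoplasmic reticulum, had 0.34 (SE 0.191).

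Of the glutathione system 26 genes were tested, 17 above 0, with a median of 0.04. Its 3 lowest unadjusted p-values belonged to glutathione transferases. Gstm2 had 2920.1, 4072.8 and 4144.0 against 4545.1, 4721.5 and 5068.4 in the knockout (log2 0.38, SE 0.193), and Gstz1 had 698.8, 769.4 and 774.8 against 829.9, 1053.0 and 863.0 (0.28, SE 0.167). In both, all knockout arrays were higher, as in 3.9% of all genes. Gsta4, which clears 4-hydroxynonenal, had 0.32 (SE 0.179) and overlapped.

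Other thioredoxins, peroxiredoxins and methionine sulfoxide reductases had 7 of 14 tested genes above 0 and a median of -0.01, with no gene separated by genotype. Prdx2, an abundant cytosolic peroxiredoxin, had -0.17 (SE 0.167), Msra, a methionine sulfoxide reductase, 0.14 (SE 0.161) and Srxn1, which repairs overoxidised peroxiredoxins, -0.29 (SE 0.335). Among 6 tested genes of other superoxide and peroxide removal, 3 were above 0 and the median was 0.00. Catalase (Cat) had 0.41 (SE 0.39), Ucp3, a mitochondrial uncoupling protein, -0.37 (SE 0.223) and the cytosolic superoxide dismutase Sod1 -0.35 (SE 0.398). Sod1 had 27712.6 in wild type array 1 and between 9530.1 and 12048.8 in the other 5 arrays.

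The list of Nfe2l2, the transcription factor that induces antioxidant genes, shares 6 genes with the lists above. It had 5 of 12 tested genes above 0 and a median of -0.02. Hmox1, the inducible haem oxygenase and a well-known Nfe2l2 target, had 188.0, 368.4 and 224.8 in the wild type and 86.9, 217.8 and 111.7 in the knockout (log2 -0.85, SE 0.361). It was lower within each replicate number, by -0.95, -0.70 and -0.89, with overlap between the groups. Gclm, a subunit of the enzyme that starts glutathione synthesis, had -0.34 (SE 0.356).

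Genes that mark the amount of mitochondria had 12 of 20 tested members above 0, a median of 0.03 and a range from -0.11 to 0.32, with no gene separated by genotype. Cs, citrate synthase, had 40151.3, 21484.8 and 24755.8 against 34385.6, 26343.4 and 24973.9 (log2 0.03). The largest difference was that of Twnk, the mitochondrial DNA helicase (0.32, SE 0.262), followed by Ppargc1a, a coactivator of mitochondrial genes (0.26, SE 0.263). Esrra, a nuclear receptor that works with it, had 0.15 (SE 0.178). Summed over the list, signals lay between 181145 and 228446 in the wild type and between 198398 and 202988 in the knockout. The wild type sum was highest in array 1, and the probe sets of Vdac1, Cs and Vdac2 weigh most in the sums of all arrays.

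**Figure D5:**
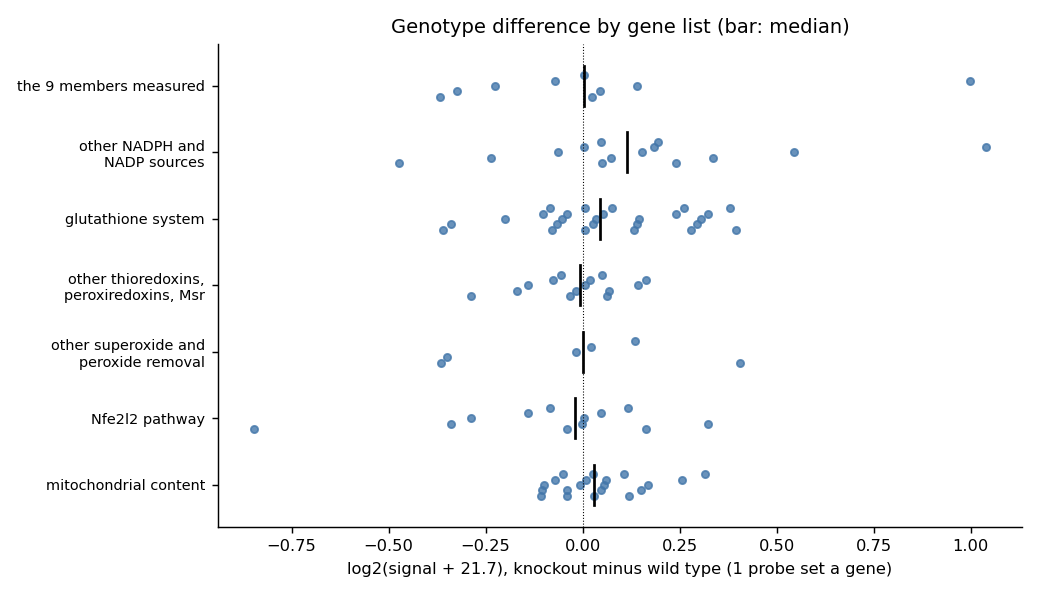
Log2 difference between knockout and wild type for each tested gene (1 probe set a gene) of the 9 members measured and of the 6 further lists, with a bar at each list's median. Nnt and Aldh1l2 are the points near 1, and the medians lie between -0.02 and 0.11.

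Because whole ventricle was measured, fewer cells of a type and less RNA per cell cannot be told apart. All 10 macrophage and monocyte markers had a log2 difference below 0 (median -0.21), each with overlap. In the replicate 3 pair, however, most of them were above 0. Their summed signals were 20449 to 31974 in the wild type and 15110 to 31049 in the knockout. Of 8 endothelial markers 7 were below 0 (median -0.16), with sums of 13631 to 16132 and 12626 to 14617. In 3 of them, Vwf, Tek and Pecam1, every knockout array was lower, as in 3.56% of all genes. All 4 atrial markers were above 0 (median 0.54), each with overlap. Myl7, Sln and Myl4 were lowest in wild type array 2, at 96.5, 56.6 and 376.0, and in the replicate 3 pair all 3 were lower in the knockout, by log2 differences of -0.95, -1.92 and -0.94. The atrial sums, 15006 to 16687 in the wild type and 16345 to 19949 in the knockout, are mostly Nppa. Of the 10 ventricular cardiomyocyte markers 8 were below 0 (median -0.06, and -0.62 in the replicate 1 pair against 0.16 in replicates 2 and 3). Of 8 fibroblast markers 6 were above 0 (median 0.07). Col3a1 was higher in every knockout array (0.26), as in 3.9% of all genes, and Col1a1 had 0.41 with overlap. Smooth muscle and pericyte markers had a median of 0.07. Of the adipocyte list only Fabp4 passed the filter (0.04) and of the erythroid list only Alas2 (-0.27). No marker with a probe set was listed at 0. The part of these differences in the values of Nnt, Gpx1 and Sod2 was not tested.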

How the data were processed

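Gene expression was measured on 6 arrays, 3 of each genotype. The deposited values are linear intensities, 1 signal per probe set, computed with MAS5 per the submitters' processing notes; the sources used here give no version or settings for it. The mean without the top and bottom 2% was 500 on every array, so each had been scaled by 1 factor, which was kept. Control probe sets (64) were left out of tests. The values analysed were log2(signal + 21.7), 21.7 being the 20th percentile of all values, which understates changes of dim genes. Probe sets were kept where their mean on this scale reached the median of 6.868. These 22519 went into limma 3.58.1 under R 4.3.3 (lmFit, eBayes, no covariate, Benjamini-Hochberg, threshold 0.05), and the brightest probe set naming 1 gene for each of 11075 genes likewise. SE are limma's moderated errors. The fits were also run on simulated data with set differences, and the outcome is not given here.

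Of the probe sets, 34945 had 1 gene symbol, 932 several and 9160 were unnamed here. Lists were matched through gene IDs to a RefSeq table (GRCm38.p6), used for names and gene order. Of the list genes, 9 had no probe set naming them alone. Members and lists were chosen with earlier results of these data known. Genes named from a list were the 3 with the lowest unadjusted p. Neighbours of Nnt were the 10 protein-coding genes on either side. Named as most like Nnt were the 5 genes with the smallest root-mean-square difference; Akt2 was named as the check of the labels. Cs, Vdac1, Vdac2, Myl2, Myl4, Myl7, Sln, Nppa, Vwf, Tek, Pecam1, Col1a1, Col3a1, Fabp4 and Alas2 were named after their values were seen.

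Centred on its genotype mean, an array correlated over probe sets with the same-numbered array of the other genotype at 0.61, 0.45 and 0.39 for numbers 1, 2 and 3. Numbers 2 and 3 crossed gave 0.44 and 0.36, so only number 1 stood apart as a pair. Values given by replicate number match numbers 2 and 3 across genotypes by their labels alone. The alternatives changed the pseudocount, the filter, the scaling or the variance estimate, took the replicate number or the replicate 1 arrays as a block, used replicates 2 and 3 alone or the mean of a gene's probe sets, or left out each array in turn.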

Additional observations from a re-analysis of the deposited data

How the results depend on the processing

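Of 13 alternatives, the replicate block and the replicate 1 block leave a log2 difference as it is. Over all 13, the log2 difference of Nnt stayed between 0.90 and 1.11 for 1416105_at and between 0.84 and 1.25 for 1456573_x_at. No member probe set moved by more than its spread within genotypes. Leaving out 1 array of 3 cannot move a difference that far, so those settings could not have shown otherwise. Signs did turn in several members. Sod2 1448610_a_at ranged from -0.31 to 0.33 and kept its sign in 8 of 13 alternatives, while both bright Nnt probe sets kept theirs in all 13. In the genotype test 1 probe set was called with the replicate 1 arrays as a block, and 13 when a trended and robust variance was used with that block, among them Nnt 1416105_at. At the gene level 1 gene was called with a pseudocount of 100, with the filter at the 75th percentile and with a trended and robust variance (Akt2 each time), 1 with the replicate 1 arrays as a block (Wdfy1), and 5 with that block and variance (Akt2, Blvrb, Nnt, Nr4a1 and Wdfy1). Nnt was chosen on this same contrast, so nothing is read from its calls. With the replicate number as a block 0 probe sets and 0 genes were called, as without it. In that limma fit 1267 probe sets had unadjusted p-values under 0.05. The fit blocked on the replicate number changed no call. No call was made when any single array was left out. The count of probe sets with all knockout arrays on one side, 1644, was 3417 without a filter and 799 with the filter at the 75th percentile, which test more and fewer probe sets. It was 9466 in replicates 2 and 3 alone and 2780 to 6287 with one array left out, where fewer arrays separate more easily. The count for replicate 1 arrays against the others, 7464, was 4272 without a filter, and the members called in it numbered 2 to 6 over the alternatives. Depth does not apply to arrays, and detection calls were not used here.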
